A study of Mus musculus with 8 samples.

Results

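Mesenchyme and yolk sac (YS) mesothelium are cell type labels of mouse chimera cells, 2 of 42 in the combined annotation. The members were all cells with either label, 942 of 28723 cells, and no measured value chose them other than the atlas label itself. Mesenchyme held 855 cells, of which 55 were Eomes-KO and 800 were WT host. YS mesothelium held 87 cells, of which 0 were Eomes-KO and 87 were WT host.

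Eomes-KO cells were the tdTomato+ cells of the chimeras, derived from tdTomato+ mouse embryonic stem cells (ESC) made Eomes null by genome editing and injected into wild-type C57BL/6 blastocysts. WT host cells were the tdTomato− cells of the same embryos, labelled E8.5 like the mutant cells. A library held the sorted cells of several pooled embryos made with 1 clone, and 4 separate clones gave 4 Eomes-KO and 4 WT host libraries. No library held injected WT ESC, so Eomes loss and ESC origin cannot be told apart. The library names do not give the pool, so a library is named here by its genotype and its number of cells, and no library could be paired with its partner.

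Mesenchyme is loosely packed, migratory mesoderm, and mesothelium is the flat epithelial sheet that lines a body cavity. In the yolk sac, extraembryonic mesoderm from the posterior primitive streak settles next to the visceral endoderm, where it gives rise to blood, endothelium and the mesothelium that faces the exocoelomic cavity. Eomes encodes a T-box transcription factor of the primitive streak and is known for its role in cardiac mesoderm and definitive endoderm. Hand1 (a basic helix-loop-helix factor of extraembryonic and lateral mesoderm), Postn (a matrix protein), Ahnak (a scaffold protein) and Bmp4 (a signaling ligand) were the markers listed for these cells. The table holds no gene counts, so neither label could be checked against them, and both names rest on atlas mapping.

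The Eomes-KO libraries held 602, 1153, 3346 and 3465 cells and the WT host libraries 2414, 3791, 5819 and 8133 cells. Summed over cells these were 19370600 to 57481950 unique molecular identifiers (UMIs) in Eomes-KO and 20512404 to 66414390 in WT host libraries. Shares are given of epiblast-derived cells, 8561 Eomes-KO and 19284 WT host, which leave out visceral endoderm, parietal endoderm, extraembryonic (ExE) endoderm and ExE ectoderm. The table holds fewer cells of both genotypes than the study states it retained, for a reason not known here, and every share is of the cells in the table. Across libraries 80 barcodes occurred more than once, and 7 of the 942 members carried such a barcode. None of the 7 was Eomes-KO, and none had the same label in the other library. Eomes-KO libraries held 1 erythroid cell against 4069 in WT host libraries.

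The 2 labels split a single atlas label. The authors mapped each cell to an original gastrulation atlas and to an extended version with finer labels. All 942 members had the original label Mesenchyme. The 87 cells with the extended label YS mesothelium were the YS mesothelium cells, and every other original Mesenchyme cell, whatever its extended label, stayed Mesenchyme. The label Mesenchyme was therefore mixed, with 8 extended labels among its 855 cells.

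YS mesothelium was listed in WT host libraries and in no Eomes-KO library. The WT host libraries held 10, 4, 31 and 42 such cells (in order of library size), or 0.418%, 0.106%, 0.602% and 0.526% of epiblast-derived cells. The 4 cells of the WT host library of 3791 cells gave the lowest share, and the other 3 lay close together. A count of 0 allows up to 3 cells, which is 0.499% of the Eomes-KO library of 602 cells and 0.0866% of that of 3465 cells. In the 2 smaller Eomes-KO libraries the limit thus exceeded the lowest WT host share, so a loss was not detectable in each of them alone. By the exact binomial 95% interval, the upper limit of the Eomes-KO library of 3346 cells (0.110%) also exceeded that share of 0.106%. The upper limit of that of 3465 cells lay practically at it (0.106%), so no Eomes-KO library alone was clearly below the lowest WT host share. Over the group, 0 of 8561 Eomes-KO cells allow a share of up to 0.035%, against 87 of 19284 or 0.451% in WT host cells (exact binomial 95% interval 0.361% to 0.556%, counting error only). Against this floor of 3 cells over the group, the pooled share of YS mesothelium was 12.9-fold lower in Eomes-KO. The exact binomial 95% upper limit for 0 of 8561 cells was 0.0431%, above the floor, so the fold is not a strict lower limit. The edgeR quasi-likelihood test compared the counts per library, not this bound, and gave adjusted p = 0.00108. The bound fell to 7.84-fold without the Eomes-KO library of 3346 cells and to 7.66-fold without that of 3465 cells. For the counts, edgeR then gave adjusted p = 0.00357 and 0.00519. Absence from Eomes-KO libraries was not particular to YS mesothelium. Among the 33 labels tested, YS endothelium, blood progenitors 1, blood progenitors 2 and erythro-myeloid progenitors also had 0 Eomes-KO cells. Haematoendothelial progenitors and definitive endoderm had 0 as well.

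Mesenchyme was present in all 8 libraries and was 6.0-fold lower in Eomes-KO. The Eomes-KO libraries held 2, 8, 26 and 19 Mesenchyme cells, or 0.333%, 0.696%, 0.777% and 0.548% of epiblast-derived cells. The WT host libraries held 70, 78, 244 and 408, or 2.92%, 2.08%, 4.74% and 5.11%. The groups did not overlap, and the 2 larger WT host libraries had higher shares than the 2 smaller ones. Eomes-KO libraries averaged 0.589% ± 0.195, against 3.71% ± 1.45 for WT host libraries (SD, n = 4 each). The log2 fold change was −2.59 (SE 0.44, edgeR adjusted p = 8.02e-05). In this fit 16 of 33 labels, 48.5%, were called lower in Eomes-KO, so a lower share is common among labels and is not particular to these. The fold depended on the scaling, with a log2 fold change of −1.91 under DESeq2 with poscounts and −3.46 under DESeq2 with ratio size factors, both past the threshold. It depended on the denominator too, of which erythroid cells were 21.1% in WT host and 0.0117% in Eomes-KO. Without them the log2 fold change was −2.93 (edgeR adjusted p = 4.88e-06). The bound for YS mesothelium was then 16.3-fold, and the edgeR test of its counts gave adjusted p = 0.000255.

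**Figure D1:**
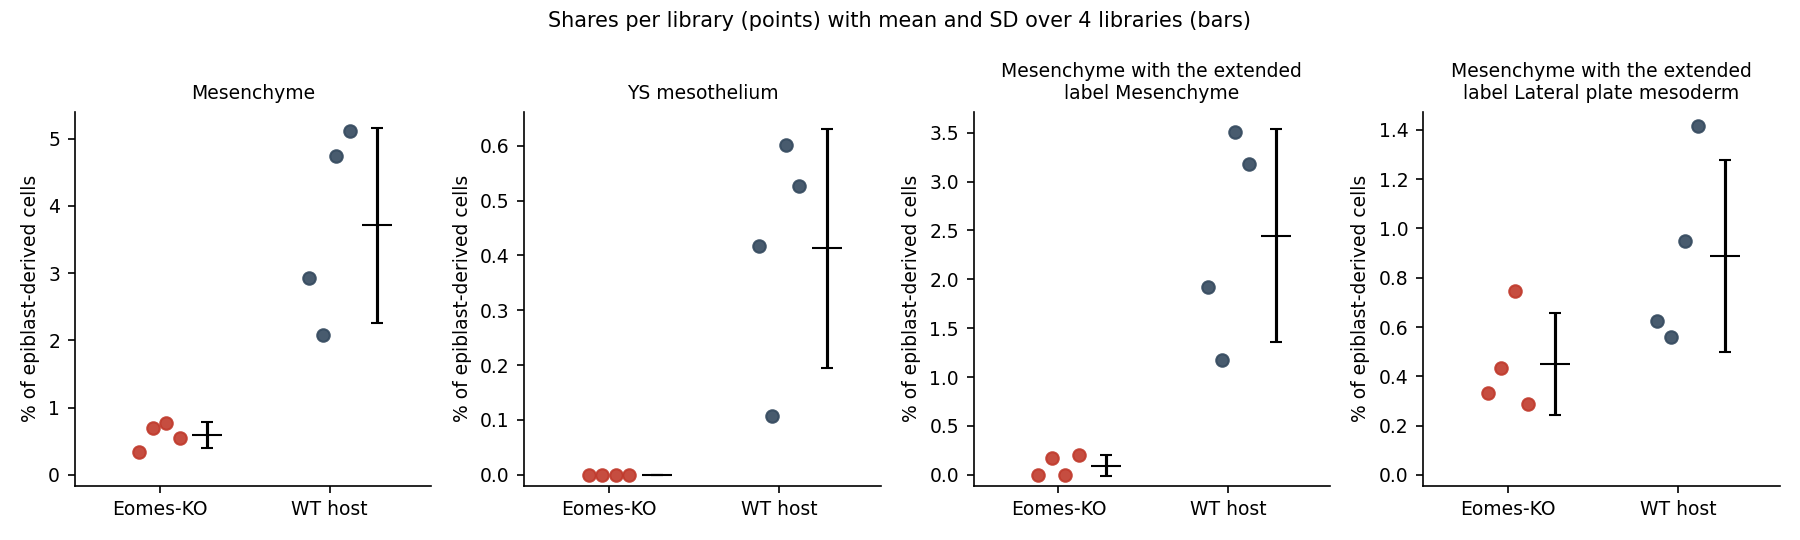
Percent of epiblast-derived cells per library (points) with the mean and SD over 4 libraries (bars), Eomes-KO left and WT host right, for Mesenchyme, YS mesothelium and the 2 main extended labels within Mesenchyme, each panel on its own scale. Mesenchyme averaged 0.589% in Eomes-KO and 3.71% in WT host libraries without overlap, whereas the cells with the extended label lateral plate mesoderm overlapped between genotypes.

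Mesenchyme was next set against allantois and lateral plate mesoderm, the neighboring mesodermal labels. Allantois, the bud that forms the umbilical vessels, held 76, 115, 539 and 413 Eomes-KO cells and 54, 76, 235 and 285 WT host cells. There were 2.63, 6.96, 4.82 and 4.60 Mesenchyme cells per 100 allantois cells in Eomes-KO libraries, against 130, 103, 103.8 and 143 in WT host libraries. Mesenchyme and allantois were thus about equally frequent in the host and far apart in the mutant. The log2 ratio, Eomes-KO minus WT host, differed by −4.61 (exact permutation test, two-sided p = 0.029, adjusted p = 0.029 over 2 ratios).

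The combined label lateral plate mesoderm held 67, 233, 816 and 803 Eomes-KO cells and 52, 149, 161 and 426 WT host cells. Of its 1919 Eomes-KO and 788 WT host cells, 1567 and 632 had the original label ExE mesoderm with the extended label lateral plate mesoderm. The paper counts lateral plate mesoderm among its extraembryonic mesoderm populations. There were 2.99, 3.43, 3.19 and 2.37 Mesenchyme cells per 100 lateral plate cells in Eomes-KO libraries, against 135, 52.3, 152 and 95.8 in WT host libraries. The Eomes-KO ratios lay within a narrow range, and the WT host ratios varied more. The log2 ratio differed by −4.97 (exact permutation test, two-sided p = 0.029, adjusted p = 0.029). With 4 against 4 libraries 0.029 is the smallest two-sided p that exists. Both ratios also hold the higher shares of allantois and lateral plate mesoderm in Eomes-KO (log2 fold change 2.02, SE 0.33, and 2.43, SE 0.34, edgeR adjusted p = 6.82e-05 and 1.5e-05).

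Within Mesenchyme, the extended labels were distributed differently in the 2 genotypes. Lateral plate mesoderm was the extended label of 42 of 55 Eomes-KO cells (76.4%, exact binomial 95% interval 63.0% to 86.8%), against 198 of 800 WT host cells (24.8%, 21.8% to 27.9%). Mesenchyme was the extended label of 9 of 55 Eomes-KO cells (16.4%, 7.77% to 28.8%), against 525 of 800 WT host cells (65.6%, 62.2% to 68.9%). These intervals cover counting error only.

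Per library, the extended label lateral plate mesoderm took 100%, 62.5%, 96.2% and 52.6% of Mesenchyme in Eomes-KO, against 21.4%, 26.9%, 20.1% and 27.7% in WT host libraries. The extended label Mesenchyme took 0%, 25%, 0% and 36.8% in Eomes-KO, against 65.7%, 56.4%, 74.2% and 62.3% in WT host libraries. For both labels no Eomes-KO library overlapped any WT host library, although the first Eomes-KO library held 2 Mesenchyme cells. With libraries of at least 5 Mesenchyme cells, the share with the lateral plate label was 46.4 percentage points higher in Eomes-KO, and that with the mesenchyme label differed by −44.0 points (Eomes-KO minus WT host). Each had an exact permutation p of 0.057, the smallest that 3 against 4 libraries allow, and an adjusted p of 0.095 over 5 labels, so this test could not pass. With all 8 libraries the differences were 53.8 and −49.2 points (exact permutation tests, adjusted p = 0.048 each).

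The log2 ratio of lateral plate to mesenchyme extended labels within Mesenchyme averaged 2.40 ± 2.31 for Eomes-KO libraries, against −1.42 ± 0.381 for WT host libraries (SD, n = 4 each). The difference was 3.82 (exact permutation test, two-sided p = 0.029, adjusted p = 0.048 over 5 comparisons chosen after the values were seen). The underlying cell numbers of lateral plate and mesenchyme labels were 2 and 0, 5 and 2, 25 and 0, and 10 and 7 in Eomes-KO libraries. In WT host libraries they were 15 and 46, 21 and 44, 49 and 181, and 113 and 254. The 0.5 added to each count set the size of the ratio in the 2 Eomes-KO libraries with 0 mesenchyme-label cells. The difference was 3.34 with 1 added, and 2.73 without the Eomes-KO library of 3346 cells and 4.46 without that of 3465 cells. Leaving out any 1 library gave an adjusted p of 0.095 (exact permutation tests), the smallest then possible. Every Eomes-KO library held more cells of the lateral plate label, and every WT host library held more of the mesenchyme label.

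**Figure D2:**
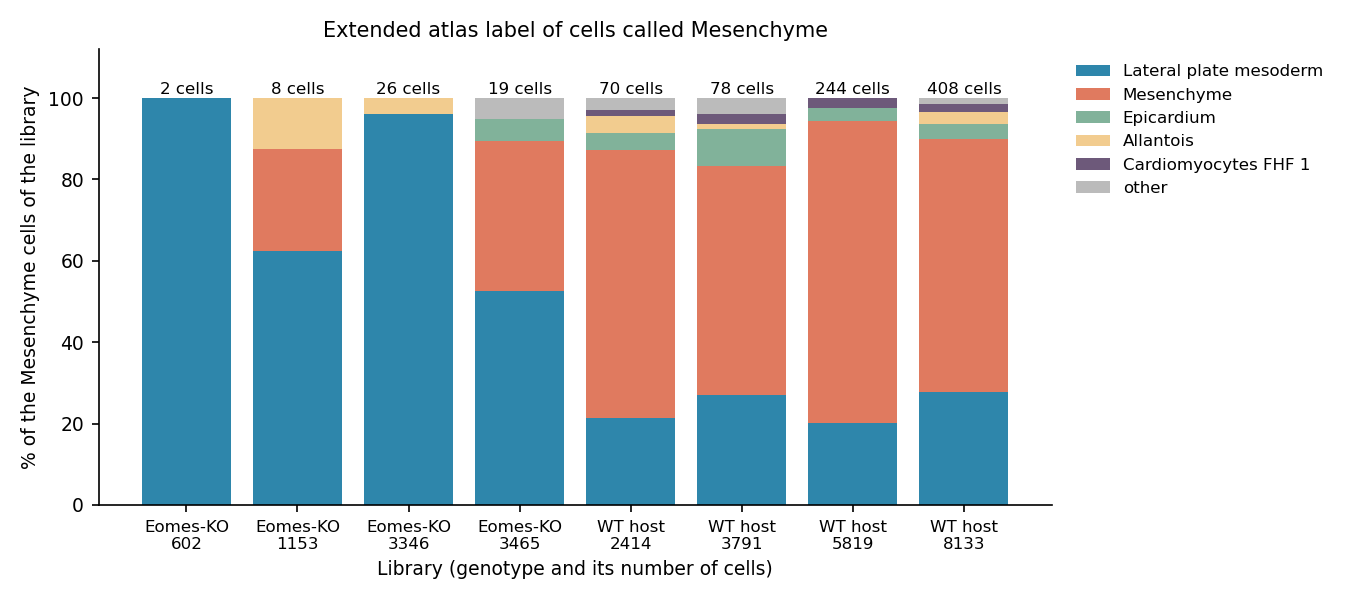
Percent of the Mesenchyme cells of each library (vertical axis) by extended atlas label (colors), with the number of Mesenchyme cells above each bar, the 4 Eomes-KO libraries left and the 4 WT host libraries right. The lateral plate label took 52.6% to 100% in Eomes-KO and 20.1% to 27.7% in WT host libraries.

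As a share of epiblast-derived cells, the cells with the extended label Mesenchyme were 0%, 0.174%, 0% and 0.202% in Eomes-KO, against 1.92%, 1.17%, 3.51% and 3.18% in WT host libraries. With Mesenchyme split by extended label in the abundance fit, this group was 22.8-fold lower in Eomes-KO (log2 fold change −4.51, SE 0.76, edgeR adjusted p = 9.89e-05). In that fit 19 of 38 labels, 50%, were called lower. Without the Eomes-KO library of 3465 cells, which held 7 of the 9 cells, the log2 fold change was −5.71, and without that of 3346 cells it was −3.90 (edgeR adjusted p = 0.000293 and 0.000114).

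The cells with the extended label lateral plate mesoderm were 0.333%, 0.435%, 0.747% and 0.289% of epiblast-derived cells in Eomes-KO, against 0.626%, 0.559%, 0.951% and 1.42% in WT host libraries. The Eomes-KO library of 3346 cells lay above the 2 lowest WT host libraries. The log2 fold change was −0.93 (SE 0.51) and did not pass (edgeR adjusted p = 0.118). It passed without the WT host library of 3791 cells (log2 fold change −1.10, edgeR adjusted p = 0.0386) and under DESeq2 with ratio size factors (−1.86, adjusted p = 0.00125). It was smaller without the WT host library of 8133 cells (−0.61, edgeR adjusted p = 0.314) and under DESeq2 with poscounts (−0.34, adjusted p = 0.576), and larger without the Eomes-KO library of 3346 cells (−1.39, edgeR adjusted p = 0.0514).

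The other extended labels of Mesenchyme held few cells. Epicardium, the mesothelial covering of the heart, was the label of 1 Eomes-KO and 33 WT host cells, a share of epiblast-derived cells 14.7 times higher in WT host (exact 95% interval 2.45 to 596, edgeR adjusted p = 0.00572). The call was lost under DESeq2 with poscounts (adjusted p = 0.0625), and without the Eomes-KO library of 3465 cells, which held the 1 cell, it was kept (edgeR adjusted p = 0.0100). First heart field cardiomyocytes (FHF 1), the heart muscle of the early heart tube, had 0 Eomes-KO and 17 WT host cells. Against a floor of 3 cells the pooled share was 2.52-fold lower in Eomes-KO, and the edgeR test of the counts gave adjusted p = 0.0203. That call was lost without the Eomes-KO library of 3346 cells (edgeR adjusted p = 0.0543) and under DESeq2 with poscounts (adjusted p = 0.203). Allantois was the label of 2 Eomes-KO and 16 WT host cells and did not pass (log2 fold change −1.53, SE 1.29, edgeR adjusted p = 0.296). Embryo proper mesothelium, the lining of the intraembryonic cavity, was the label of 1 Eomes-KO and 6 WT host cells. In WT host cells 4 further Mesenchyme cells had the label pharyngeal mesoderm and 1 had ectoderm.

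The extended label lateral plate mesoderm was also followed to the combined labels. Among cells with the extended label lateral plate mesoderm, 42 of 1647 Eomes-KO cells (2.55%) were called Mesenchyme, against 198 of 860 WT host cells (23.0%). Nearly all others, 1571 Eomes-KO and 634 WT host cells, were called lateral plate mesoderm. Per library the share called Mesenchyme was 3.51%, 2.40%, 3.5% and 1.50% in Eomes-KO, against 26.3%, 15.3%, 26.5% and 23.5% in WT host libraries. Eomes-KO libraries differed from WT host libraries by −20.2 percentage points (exact permutation test, two-sided p = 0.029, adjusted p = 0.048 over the same 5 comparisons). This share also holds its denominator, which was 57, 208, 714 and 668 cells in Eomes-KO libraries and 57, 137, 185 and 481 in WT host libraries. The combined label lateral plate mesoderm was higher in Eomes-KO (log2 fold change 2.43), whereas the decrease of its extended label within Mesenchyme did not pass (log2 fold change −0.93, edgeR adjusted p = 0.118). Of cells with the extended label Mesenchyme, 9 of 11 Eomes-KO cells were called Mesenchyme, against 525 of 548 WT host cells. The others were called pharyngeal mesoderm (1 Eomes-KO, 14 WT host) or lateral plate mesoderm (1 Eomes-KO, 9 WT host).

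Within the original label Mesenchyme, YS mesothelium made up 0 of 55 Eomes-KO cells, which allows a share of up to 5.45%, and 87 of 887 WT host cells (9.81%, exact binomial 95% interval 7.93% to 11.96%). Per WT host library the share was 12.5%, 4.88%, 11.3% and 9.33%. The share differed by −9.50 percentage points, Eomes-KO minus WT host (exact permutation test, two-sided p = 0.029, adjusted p = 0.048 over the same 5 comparisons). The call was lost without any 1 library (exact permutation tests, adjusted p = 0.095). The Eomes-KO libraries held 2, 8, 26 and 19 cells of the original label, too few in the smaller ones for a share of this size to give a cell. Since 0 cells were likely there at such a share, no conclusion is drawn from this test. The 4.88% of the WT host library of 3791 cells lay under the 5.45% that the pooled Eomes-KO count allows, so a low share of YS mesothelium among the 55 cells was not detectable at this depth.

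Each cell also has the position of its closest atlas cell on the atlas UMAP, a map on which similar atlas cells lie near each other. Eomes-KO Mesenchyme lay low on the second axis, with a median of 9.11 and with a 5th percentile of 8.04 and a 95th percentile of 10.7. WT host Mesenchyme had a median of 11.3 and the same percentiles at 8.56 and 15.1, and YS mesothelium had a median of 12.8. The library medians were 9.46, 9.09, 9.23 and 9.05 in Eomes-KO and 11.6, 10.9, 12.3 and 10.9 in WT host libraries. Among cells with the extended label lateral plate mesoderm the genotypes lay together, at medians of 9.06 for Eomes-KO and 9.17 for WT host cells. Among those with the extended label Mesenchyme they lay apart, at 9.11 in 9 Eomes-KO cells and 12.5 in 525 WT host cells. The axis has no unit and these positions were not tested.

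**Figure D3:**
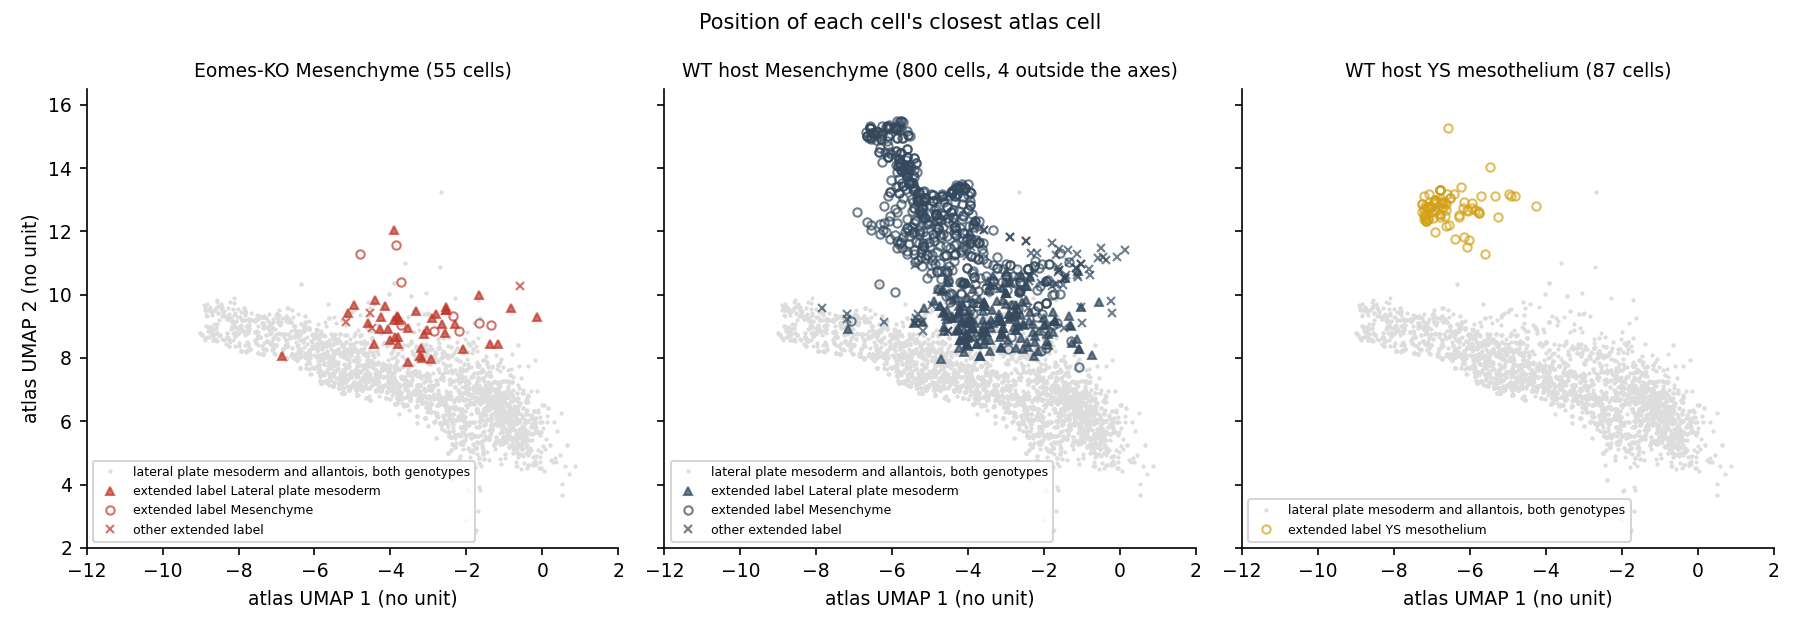
Atlas UMAP position of the closest atlas cell of each Eomes-KO Mesenchyme cell (left), WT host Mesenchyme cell (middle) and WT host YS mesothelium cell (right), symbols by extended label, with lateral plate mesoderm and allantois cells in gray. Eomes-KO cells sat next to the gray cells, at a median of 9.11 on the second axis, and most of the upper arm that WT host cells filled was empty. 4 WT host cells lay outside the axes.

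The 55 Eomes-KO cells had 54 different closest atlas cells, and the 800 WT host cells had 645. The genotypes shared 10 closest atlas cells, which held 10 Eomes-KO and 11 WT host cells. No baseline for this overlap was computed, and nearly every Eomes-KO cell had its own closest atlas cell. Of the 54 for Eomes-KO Mesenchyme, 10 were also closest to a cell called lateral plate mesoderm, and of the 645 for WT host Mesenchyme, 14 were. The lateral plate cells were of both genotypes, 1919 Eomes-KO and 788 WT host cells. YS mesothelium had 71 different closest atlas cells, of which 4 were shared with WT host Mesenchyme.

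The mapped stage, the atlas stage of the nearest cells, was spread from E7.5 to E8.5 in Mesenchyme of both genotypes. Eomes-KO Mesenchyme had 6 cells at E7.5, 4 at E7.75, 18 at E8.0, 17 at E8.25 and 10 at E8.5. WT host Mesenchyme had 29, 108, 234, 271 and 158 cells at the same stages. The share at E8.25 or E8.5 was 49.1% in Eomes-KO (35.4% to 62.9%, exact binomial 95% interval), against 53.6% for WT host cells (50.1% to 57.1%), so a difference was not detectable at this depth.

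The mean mapped stage was 8.06, 8.04 and 8.16 in the Eomes-KO libraries with at least 5 Mesenchyme cells, against 8.18, 8.16, 8.13 and 8.12 in WT host libraries. The groups overlapped, and neither the mean stage nor any of the 5 stage shares passed (exact permutation tests, adjusted p of 0.34 or higher over 6 comparisons, where 3 against 4 libraries allow no p under 0.057). The share at E7.5 had the lowest p, at 12.5%, 7.69% and 15.8% in Eomes-KO against 1.43%, 3.85%, 2.87% and 4.41% in WT host libraries (exact permutation test, p = 0.057, adjusted p = 0.34). These 3 Eomes-KO values lay above all WT host values but rested on 6 cells, and the Eomes-KO library of 602 cells had none at E7.5.

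Mapped stage was also read within the extended labels of Mesenchyme, with no test between labels. Among WT host cells, those with the lateral plate label had 49 of 198 (24.7%) at E8.25 or E8.5, those with the mesenchyme label 328 of 525 (62.5%), and those with the epicardium label 21 at E8.25 and 10 at E8.5 of 33. Among Eomes-KO cells the lateral plate label had 19 of 42 (45.2%, exact binomial 95% interval 29.8% to 61.3%) at E8.25 or E8.5 and the mesenchyme label 6 of 9. The mean stage of the lateral plate group averaged 8.02 ± 0.064 for Eomes-KO (SD, n = 3) and 7.98 ± 0.034 for WT host libraries (SD, n = 4). The difference of 0.042 did not pass (exact permutation test, adjusted p = 0.34).

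YS mesothelium mapped mostly to the latest atlas stages. Of its 87 WT host cells, 58 mapped to E8.5, 28 to E8.25 and 1 to E7.75, so that 98.9% lay at E8.25 or E8.5, against 53.6% of WT host Mesenchyme. Its mean stage was 8.38, 8.44, 8.43 and 8.40 in the 4 WT host libraries, above Mesenchyme in all of them by 0.263 on average. In the 3 libraries with at least 5 YS mesothelium cells the difference was 0.259 ± 0.057 (SD), and the exact sign-flip test gave p = 0.25, the smallest that 3 libraries allow.

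**Figure D4:**
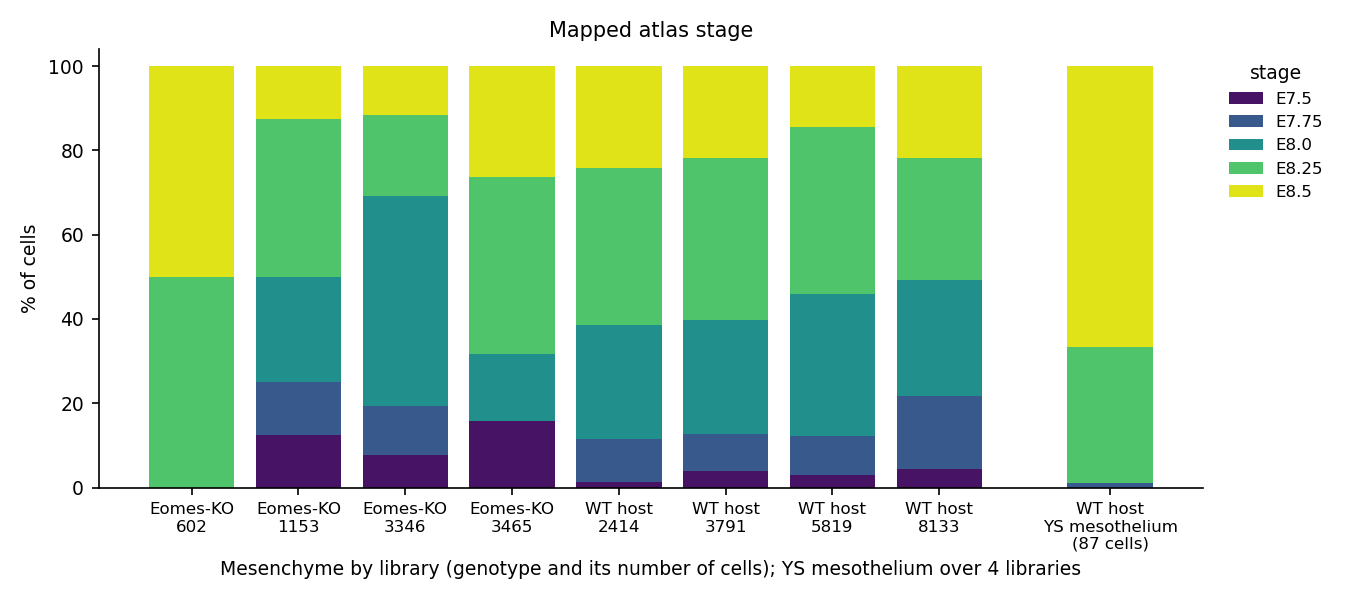
Percent of cells (vertical axis) at each mapped atlas stage (colors), for Mesenchyme in the 4 Eomes-KO and the 4 WT host libraries and for the 87 WT host YS mesothelium cells. Mesenchyme spanned E7.5 to E8.5 in both genotypes, and 98.9% of YS mesothelium lay at E8.25 or E8.5.

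Each original label has a score, the part of the 15 closest atlas neighbors that share it. The median score of Mesenchyme was 0.9, 0.7 and 0.733 in the Eomes-KO libraries with at least 5 Mesenchyme cells (0.867 in that of 602 cells), against 1 in every WT host library. The groups did not overlap, with exact permutation p = 0.057 and adjusted p = 0.23 over 8 quality measures. A score of 1 was held by 13 of 55 Eomes-KO cells (23.6%, exact binomial 95% interval 13.2% to 37.0%), 571 of 800 WT host Mesenchyme cells (71.4%) and 87 of 87 YS mesothelium cells. Among other epiblast-derived cells it was held by 34.2% to 37.9% in Eomes-KO and 42.4% to 49.3% in WT host libraries. WT host Mesenchyme was therefore scored above the rest of each of its libraries, and Eomes-KO Mesenchyme was above the rest in 1 of 4 libraries. The genotype difference was not particular to Mesenchyme. Allantois had median scores of 0.933, 0.867, 0.933 and 0.867 in Eomes-KO, against 1 in every WT host library. Its share of cells at 1 was 31.7% to 39.0% in Eomes-KO and 55.7% to 63.2% in WT host libraries. In lateral plate mesoderm the median scores were 0.867 to 0.933 in both genotypes.

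Score and extended label were then read together. Within the lateral plate group the median label score was 0.933, 0.733 and 0.667 in Eomes-KO libraries against 0.933, 0.8, 0.867 and 0.867 in WT host libraries, which overlapped (difference −0.089, exact permutation test, adjusted p = 0.34). Within the mesenchyme group it was 0.933 and 1 in the 2 Eomes-KO libraries with such cells (2 and 7 cells), against 1 in every WT host library. The part of the make-up in the label scores of Mesenchyme as a whole was not tested. The median score of the extended label was 0.8, 0.733 and 0.6 in Eomes-KO and 0.8, 0.8, 0.933 and 0.8 in WT host libraries (exact permutation test, adjusted p = 0.46). The 9 Eomes-KO cells with the extended label Mesenchyme had a median extended score of 0.6, against 0.933 in 525 WT host cells.

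Depth was compared next. The median of Mesenchyme was 18969, 15527 and 8338 UMIs per cell in Eomes-KO, against 7939, 10553.5, 10688.5 and 4868 in WT host libraries, with overlap (exact permutation test, adjusted p = 0.46). Set against the other epiblast-derived cells of the same library, Mesenchyme had a log2 ratio of UMIs of −0.03, −0.13 and −0.09 in Eomes-KO and of −0.08, −0.03, −0.02 and −0.07 in WT host libraries. The difference was −0.03 (exact permutation test, adjusted p = 0.29). The Eomes-KO library of 602 cells had −0.38 over 2 Mesenchyme cells, and with it the difference was −0.11 (exact permutation test, adjusted p = 0.14). The log2 ratio of genes per cell was −0.00, −0.12 and −0.10 in Eomes-KO and 0.06, 0.11, 0.06 and 0.03 in WT host libraries, which did not overlap (difference −0.14, exact permutation p = 0.057, adjusted p = 0.11). With the Eomes-KO library of 602 cells (−0.18) added it was −0.17 (exact permutation p = 0.029, adjusted p = 0.057). Allantois shared this direction. Its median genes were 5178, 4054, 3813 and 2820 in Eomes-KO, below the other cells (5568, 4257, 3994 and 2857). In WT host libraries they were 2855.5, 3162.5, 3276 and 2098, above the other cells (2641, 3009, 3133 and 2012). Lateral plate mesoderm lay on both sides in each genotype. The other cells held erythroid cells almost only in WT host libraries, and the part of this in the ratio was not tested.

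The ribosomal share of UMIs was 26.0%, 27.2% and 25.04% in Eomes-KO Mesenchyme, against 22.7%, 24.6%, 22.5% and 22.6% in WT host Mesenchyme. These libraries did not overlap (difference 2.98 points, exact permutation p = 0.057, adjusted p = 0.23), but the 2 Mesenchyme cells of the Eomes-KO library of 602 cells had a median of 24.1%, below the highest WT host library. Other epiblast-derived cells had 25.8% to 27.5% in Eomes-KO and 25.1% to 27.1% in WT host libraries, which overlapped. Allantois leaned the same way as Mesenchyme, with overlap. It had 24.1%, 26.3%, 26.1% and 24.7% in Eomes-KO against 23.4%, 24.8%, 22.7% and 22.7% in WT host libraries. Lateral plate mesoderm had 25.05% to 26.9% in Eomes-KO and 24.5% to 26.0% in WT host libraries, which also overlapped. The mitochondrial share was 1.99%, 0.93% and 2.21% in Eomes-KO and 1.87%, 1.44%, 2.10% and 1.88% in WT host Mesenchyme. The doublet score was 0.29, 0.265 and 0.16 in Eomes-KO and 0.19, 0.25, 0.27 and 0.2 in WT host Mesenchyme. Neither differed beyond the spread between libraries (exact permutation tests, adjusted p = 1 each).

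**Figure D5:**
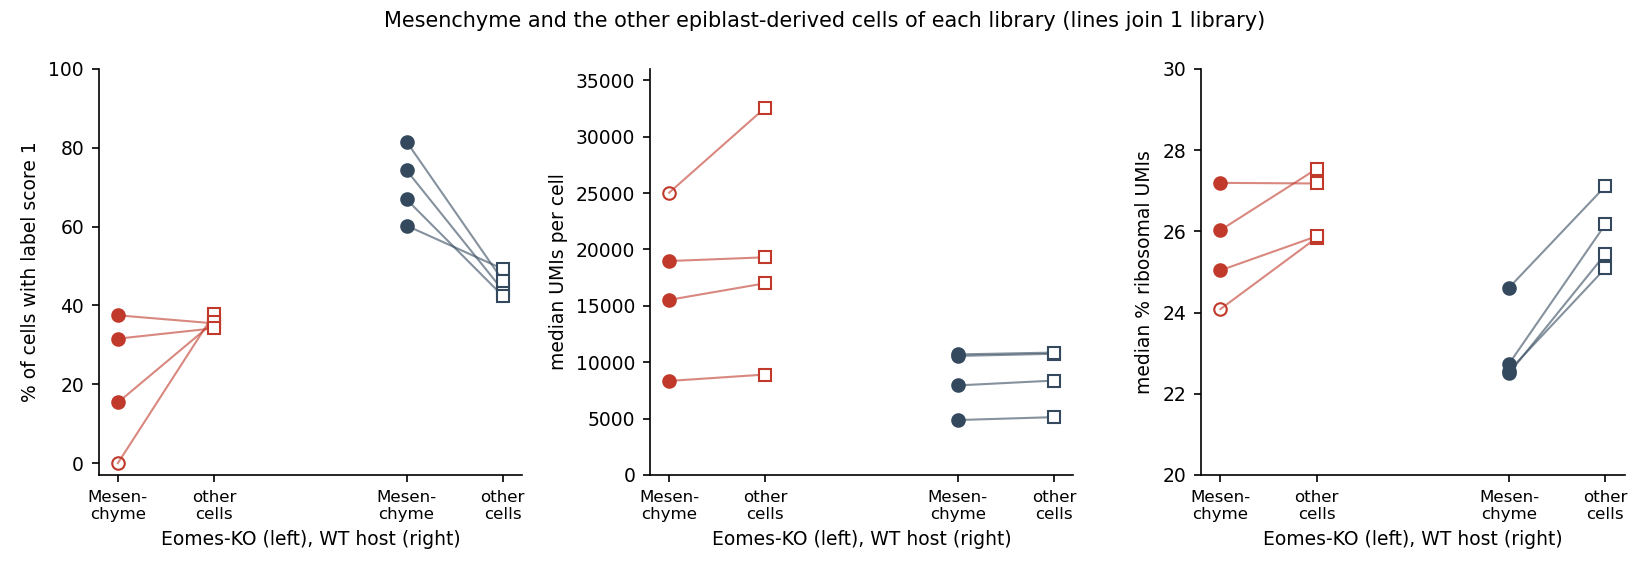
Percent of cells with a label score of 1, median UMIs per cell and median ribosomal percent (vertical axes) for Mesenchyme (circles) and the other epiblast-derived cells (squares) of each library, joined by a line, Eomes-KO left and WT host right. The open circle is the Eomes-KO library with 2 Mesenchyme cells, and the ribosomal axis starts at 20. WT host Mesenchyme held 60.3% to 81.6% of cells at score 1, above its own libraries, and Eomes-KO Mesenchyme 0% to 37.5%.

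YS mesothelium was compared with WT host Mesenchyme of the same libraries in its quality measures. Its median UMIs were 6884, 10413.5, 9524 and 4557 in the WT host libraries, below Mesenchyme in 4 of 4 libraries. In the 3 libraries with at least 5 YS mesothelium cells, the difference from Mesenchyme was −843.5 UMIs, 0.448 points of mitochondrial share and 0.0889 in the stage score, the fraction of nearest atlas cells of the mapped stage. Each had the same sign in 3 of 3 libraries, and none could pass (exact sign-flip tests, p = 0.25, the smallest possible, adjusted p = 0.45 over 9 measures). With the WT host library of 3791 cells and its 4 YS mesothelium cells, which was added after the values were seen, the differences were −668, 0.361 and 0.13 (exact sign-flip tests, p = 0.13, adjusted p = 0.28). Of the other measures, the mean mapped stage given above kept its sign. Genes per cell were lower in 3 of 3 libraries (−176), and in 3 of 4 with the added one. The ribosomal share and the doublet score went both ways, and the extended label score was lower in 2 of 3 libraries. The median label score was 1 for both labels in every WT host library, although the share of cells at 1 was 87 of 87 for YS mesothelium and 571 of 800 for Mesenchyme.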

How the data were processed

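The deposited table has 1 row per cell and no gene counts. The authors sorted chimeric cells by tdTomato, made 10x 3' libraries and counted UMIs (total counts per cell, not normalized) with Cell Ranger 6.0.1 on mm10 (also in the submitters' processing notes). They kept cells by UMIs, genes and mitochondrial and ribosomal percent, and removed cells with a doublet score above 0.5. The deposited mitochondrial and ribosomal values are percent of UMIs. The authors mapped each library to a gastrulation atlas, and each deposited label score is the fraction of the 15 nearest atlas cells with the label. UMAP positions are those of the closest atlas cell.

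A library was put in a genotype group through its tdTomato status. Cells per library and label were compared with the quasi-likelihood test of edgeR 4.0.16 under R 4.3.3 (glmQLFit and glmQLFTest, labels with at least 10 cells, epiblast-derived cells as library size, genotype alone, Benjamini-Hochberg at 0.05). The study also modeled the embryo pool, which the names did not allow here. Where Eomes-KO had 0 cells, the fold is a bound from pooled shares against 3 cells, and the p-value beside it is of the fit to the counts. Ratios of labels (log2, 0.5 added) and values per library (at least 5 Mesenchyme cells) were compared by two-sided exact permutation in scipy 1.17.1, and intervals are Clopper-Pearson at 95%. Cells are not replicates. Cell numbers set the precision, and the Eomes-KO libraries held 2 to 26 Mesenchyme cells. Alternatives were TMM, DESeq2 1.42.0, limma 3.58.1 with log2 shares, changed denominators, cell filters and label sets, and leaving out each library. Tests were tested on simulated data. Members and lists were chosen with earlier results of these data known. By rule, the text names both labels, allantois, lateral plate mesoderm and every extended label of at least 10 members, and the rarer ones were named after their counts were seen.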

Additional observations from a re-analysis of the deposited data

Results flagged for a closer look

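In 25 groups of 4 libraries examined for a value far from the other 3, 4 held one. Chance gives about 1 in 20 for independent, continuous values, which the tied extended label scores and the linked stage shares are not. In WT host Mesenchyme the library of 3791 cells had a median ribosomal share of 24.6%, and the library of 5819 cells had a median extended label score of 0.933 and 33.6% of cells at E8.0. The WT host library of 8133 cells had 17.4% at E7.75. The genotypes differed in the log2 ratios of Mesenchyme to allantois (−4.61) and to lateral plate mesoderm (−4.97), and in that of lateral plate to mesenchyme extended labels within Mesenchyme (3.82), each by an exact permutation test.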

How the results depend on the processing

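Mesenchyme abundance kept its direction and passed under all 22 alternatives (log2 fold change −4.31 to −1.91, −2.78 to −2.39 without 1 library), and YS mesothelium under all 21 (bound 5.15-fold to 23.2-fold, 7.66-fold to 15.3-fold without 1 library). DESeq2 moved the median label by −0.90 (ratio) and 0.61 (poscounts) on the log2 scale. Without 1 library, the ratios to allantois (−4.81 to −4.42) and lateral plate mesoderm (−5.28 to −4.77) could not pass, since 3 against 4 libraries allow no p under 0.057. With at least 1 cell per library, 3 of 5 extended-label shares passed and the differences in stage were −6.08 points (E8.0), 1.14 (E8.25), 4.53 (E8.5) and 0.0098 (mean stage), turned from the reported direction. Directions also turned for the doublet score (−0.015 with at least 10 cells, −0.0283 at 5000 to 20000 UMIs, −0.015 to 0.05 without 1 library), relative UMIs (0.062 at 5000 to 20000 UMIs) and the allantois share (−0.204 with at least 10 cells, −0.204 to 6.05 without 1 library). Without 1 library they turned for the mitochondrial share (−0.364 to 0.276) and the shares at E7.75 (−5.68 to 0.569), E8.0 (−8.39 to 8.72) and E8.25 (−7.70 to 3.73). None of these had passed, and the cause was not tested. No paired analysis was possible because library names do not give the pool. Eomes-KO values rest on 55 cells, 2 of them in the smallest library, which limits every statement on their make-up, stage and scores.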
